A study of Solanum lycopersicum with 21 samples.

Results

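FUL2-TM3-only regions away from chromosome ends are stretches of the tomato genome with a DAP-seq peak of the FUL2-TM3 complex and no peak of the other 5 complexes measured beside it. To find them, overlapping peaks of the 6 deposited lists were joined into 26850 regions. Of these, 21224 lay on the 12 chromosomes with their midpoint at least 1 Mb from both ends, and 5417 of the 21224 held a FUL2-TM3 peak. In 1178 of the 5417 the FUL2-TM3 list stood alone, which is 21.7% (95% Wilson interval 20.7 to 22.9%) of the FUL2-TM3 regions and 5.55% of all regions in that part of the genome. Being in exactly 1 list was common there, since 49.0% of the 21224 regions were. Each of the 1178 regions held a single FUL2-TM3 peak. They were chosen by the presence of a call in 1 list and its absence in 5, at the authors' cut-off, and by position, so their peak strength is given as a description and without a test. A FUL2-TM3-only region may still hold signal of another complex below that cut-off. Comparing FUL2 with MC over pooled partners, the authors inspected targets that seemed specific and found them close to the cut-off on either side. No binding site truly specific to FUL2 or to MC could be identified by them.

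The study asked which DNA the tomato proteins FUL2 and MC hold when each is combined with J, J2 or TM3. FUL2-TM3, FUL2-J, FUL2-J2, MC-J, MC-J2 and MC-TM3 were made in a wheat germ cell-free system with a 3×FLAG tag on FUL2 or MC, and incubated with a fragment library of young-leaf DNA of wild-type plants of the cultivar Moneyberg. Each complex has 3 libraries, and 3 input libraries came from an expression mix without plasmid, 21 samples in all. The authors merged the alignments of a complex and deposited 1 peak list for each, so no value per library stands behind a peak, and differences between complexes have no replicate error here. The proteins met naked DNA outside the cell, from a library that was not amplified and, the authors state, still held DNA methylation. They propose this as a possible reason why some relevant binding sites gave no peak. The proteins were mixtures in which the share of each possible dimer or tetramer is not measured. In gel shifts with a separate probe, the authors saw mainly tetramers, with a prominent dimer for FUL2-J alone.

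FUL2 and TM3 are MADS-domain transcription factors, which bind DNA as dimers and tetramers at CArG-boxes, short A/T-rich motifs. FUL2 belongs to the AP1/FUL-like clade, whose members act in floral transition, inflorescence development and fruit ripening, and MC is an AP1/FUL-like protein known for its role in inflorescence and sepal development. TM3 is a SOC1-like protein, a clade known for promoting flowering. J is the SVP-like protein JOINTLESS, known for its role in the pedicel abscission zone and in keeping the inflorescence reproductive, and J2 is a SEP-like protein known for its role in inflorescence branching. DAP-seq reads binding as a pile of sequenced fragments above a local background. Sequence letters and genes are not given, because the sequence and annotation of the Moneyberg genome, in whose coordinates all positions stand, were not used here.

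FUL2-TM3-only regions were of lower enrichment and narrower than FUL2-TM3 regions shared with another complex. Over all backgrounds together, their summits were covered by nearly as many reads, but within steps of local background by fewer. The fold enrichment, which is the treatment pileup over the local background at the summit, had a median of 3.44 in FUL2-TM3-only regions (95% binomial interval of the median 3.39 to 3.49, n = 1178), against 3.92 (3.91 to 3.97, n = 4239) in shared regions. The values of FUL2-TM3-only regions ran between 1.67 and 6.05, within the range of shared regions, and their central 80% ran between 2.65 and 4.42, against 3 and 5.14 in shared regions. The distributions thus overlapped over most of their length, and the upper tail was thinner in FUL2-TM3-only regions. A fold of at least 5 was reached by 29 FUL2-TM3-only regions, 2.46% (1.72 to 3.51%), against 12.3% of shared regions.

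The −log10 q, the caller's adjusted measure of how improbable a pileup is over its background, had a median of 12.1 (11.8 to 12.4) in FUL2-TM3-only regions and 14.1 (14.0 to 14.2) in shared regions. Ranked by −log10 q among all 5417 FUL2-TM3 regions away from ends, FUL2-TM3-only regions had a median percentile of 37.5 (34.2 to 40.2), against 54.1 for shared regions. They were thus weaker on the whole than shared regions away from ends, but not all at the floor. Ranked in the whole FUL2-TM3 list, with peaks near ends and on unplaced sequence, their median percentile was 52.2 (49.1 to 54.7). In that ranking it was 66.7 for shared regions away from ends and 30.4 for FUL2-TM3-only regions within 1 Mb of an end. Among the regions away from ends, the shares at both extremes were as follows. The strongest 25% held 130 of them (11.0%, against 28.9% of shared regions), the strongest 10% held 26 (2.21%, against 12.2%), and the weakest 25% held 431 (36.6%, against 21.7%). Single-list regions of the other 5 complexes also ranked low among their own lists' peaks away from ends, with median percentiles of 26.8 (MC-J2) to 37.0 (MC-J).

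Set in steps of strength, the share of FUL2-TM3 regions with no other list was lower in each stronger bin. It was 37.2% in the weakest 10% by −log10 q and 28.4%, 23.5%, 22.0% and 12.8% in the bins between, and 4.78% (26 of 544 regions) in the strongest 10%. At the authors' cut-off, FUL2-TM3 peaks in the strongest 10% away from chromosome ends were thus seldom alone. How often a peak stands alone depends on where the other lists are cut. With the 4000 strongest peaks of each list kept, 30.2% of the FUL2-TM3 regions were alone, against 21.7%. Regions held by FUL2-TM3 and MC-TM3 and by no other complex, 670 in number, lay between FUL2-TM3-only regions and those of all 6 lists. Their median fold was 3.81, against 3.44 in FUL2-TM3-only regions and 4.25 in the 1273 regions of all 6 lists.

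**Figure D1:**
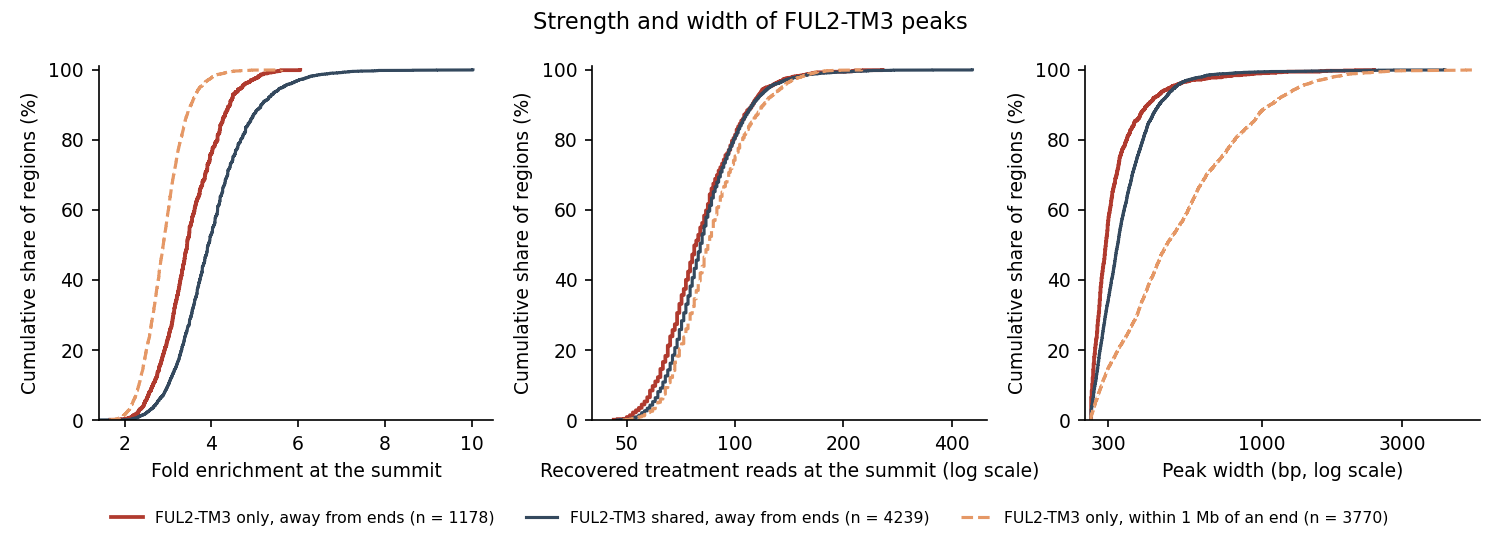
Cumulative shares of FUL2-TM3-only regions away from ends (red), shared FUL2-TM3 regions away from ends (dark) and FUL2-TM3-only regions within 1 Mb of an end (dashed) by fold enrichment, by recovered treatment reads at the summit and by peak width. Reads are shown for regions where they could be recovered. The red curve lies left of the dark one for fold (medians 3.44 and 3.92) and for width (294 and 322 bp), and close to it for reads (78 and 80).

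The reads behind a summit can be recovered from the caller's fold and p, as both depend on the pileup and the background alone. This worked at 1151 of the 1178 FUL2-TM3-only regions (97.7%), where a median of 78 treatment reads (76 to 80) covered the summit, against 80 (80 to 81) in shared regions. The local background differed more. It is expressed against the background common to the FUL2-TM3 list, which equals 10.8 input reads, and its median was 1.33 times that level (1.3 to 1.39) at FUL2-TM3-only regions and 1.2 times (1.19 to 1.2) at shared regions. A background over 1.1 times the common one stood at 816 of 1151 FUL2-TM3-only regions, 70.9% (68.2 to 73.4%), against 62.4% of shared regions. A background over 1.5 times the common one was found at 37.9% and 22.2%, and one over 2 times at 15.6% and 6.06%.

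**Figure D2:**
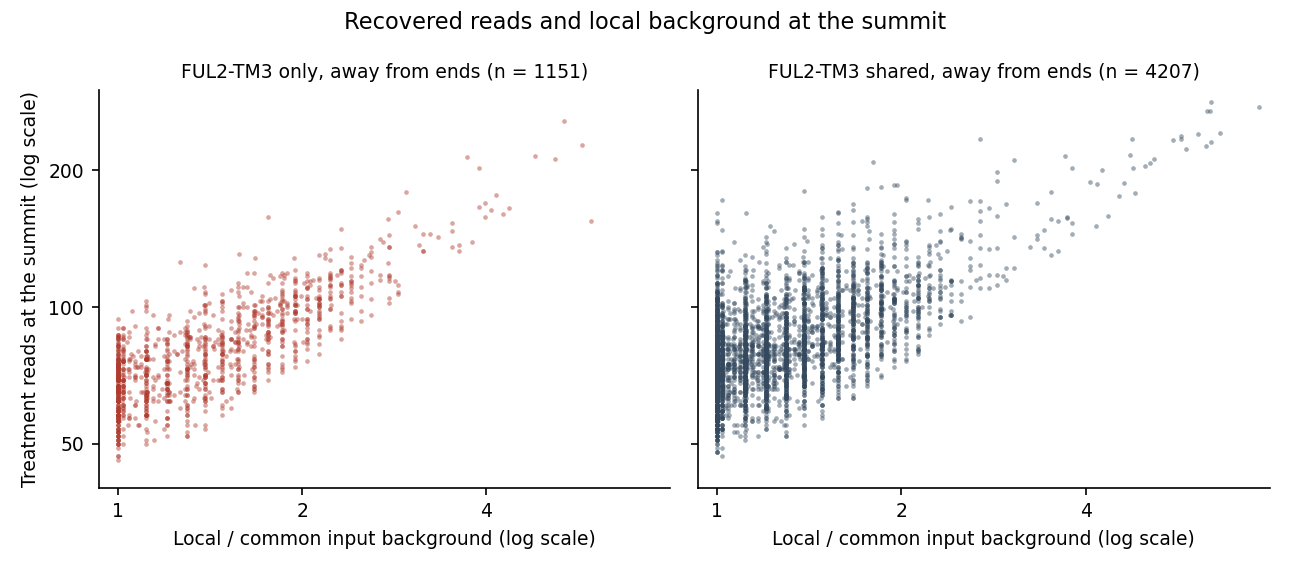
Treatment reads at the summit (vertical, log scale) against the local background as a multiple of the common one (horizontal, log scale), for 1151 FUL2-TM3-only regions (left) and for shared FUL2-TM3 regions (right), all away from ends. Each point is 1 region, and 2 shared regions fall outside the plotted range. The lower edge of both clouds is the calling cut-off, and FUL2-TM3-only regions hold more points at raised background, 15.6% over 2 times the common level against 6.06%.

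By background, the share of FUL2-TM3 regions with no other list was 17.5% up to 1.1 times the common level, 18.4% between 1.1 and 1.5 times, 27.5% between 1.5 and 2 times, 42.3% between 2 and 3 times, and 36% (27 of 75) above. Within these steps the median folds of FUL2-TM3-only and shared regions differed most between 1.1 and 1.5 times and least above 2 times. At a background of up to 1.1 times, the median fold was 4.02 in FUL2-TM3-only regions and 4.31 in shared regions. Between 1.1 and 1.5 times it was 3.49 and 3.88, between 1.5 and 2 times 3.24 and 3.42, between 2 and 3 times 2.96 and 3.03, and above 3 times 2.67 in FUL2-TM3-only and 2.65 in shared regions. The median reads at the summit were fewer in FUL2-TM3-only than in shared regions in each step. From the lowest background to the highest they were 69 and 73, 73 and 80, 91 and 95, 108 and 110, and 155 and 194. Over all FUL2-TM3-only regions, fold and background had a Spearman correlation of −0.61 and −log10 q and background one of 0.046 (n = 1151 regions of 1 merged library, which are not replicates). The fold contains the background as its divisor. The part of the background in the absence of other calls was not tested.

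**Figure D3:**
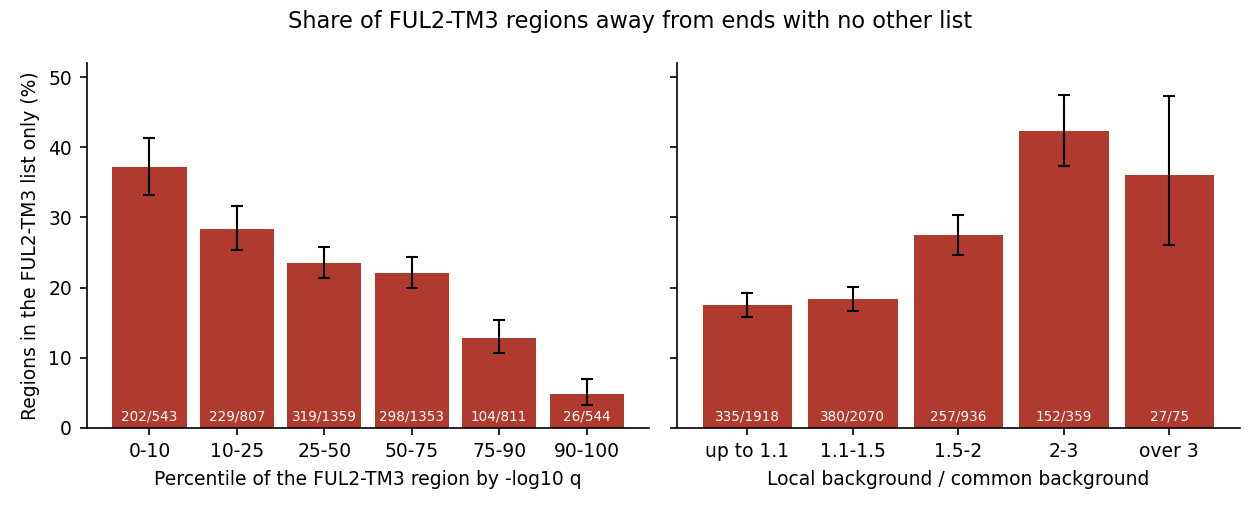
Share of FUL2-TM3 regions away from ends that no other list holds, by percentile of −log10 q (left) and by local background as a multiple of the common one (right). Bars start at 0, error bars are 95% Wilson intervals, and the counts in the bars are FUL2-TM3-only over all FUL2-TM3 regions of the bin. The share is 37.2% in the weakest 10% and 4.78% in the strongest, and 17.5% at the lowest background.

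Most FUL2-TM3-only regions were narrow. Their width had a median of 294 bp (291 to 297), against 322 bp (320 to 325) in shared regions, and 670 of the 1178 (56.9%) were under 300 bp, against 34.3% of shared regions. The narrowest was 262 bp, as in shared regions. A width over 500 bp was seen in 53 FUL2-TM3-only regions (4.50%) and in 5.33% of shared regions. Among the 6 lists this was the highest share of wide single-list regions, the others lying between 0.0% (MC-J2) and 2.30% (MC-J). The rank rested on the 7 dense runs described below. Outside them 1.15% of FUL2-TM3-only regions were over 500 bp, against 2.30% of MC-J-only and 1.24% of MC-TM3-only regions with their own runs kept. Width went with neither strength measure across FUL2-TM3-only regions, with Spearman correlations of −0.0027 for −log10 q and −0.068 for fold (n = 1178).

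FUL2-TM3-only regions within 1 Mb of a chromosome end, 3770 in number, differed from those away from ends, as did shared FUL2-TM3 regions. Away from ends the median fold was 3.44, against 2.89 near ends, and the median width was 294 bp, against 472 bp. Widths over 500 bp made up 4.50% away from ends and 46.9% near ends, and backgrounds over 1.1 times the common one 70.9% and 96.9%. The background shares cover the regions with a recovered background, 97.7% of those away from ends and 91.1% of those near ends. Shared FUL2-TM3 regions had a median fold of 3.92 away from ends and 3.12 near ends, and median widths of 322 and 833 bp. Of these shared regions near ends, 77.9% were over 500 bp wide and 96.7% had a background over 1.1 times the common one. The 3 FUL2-TM3-only regions just inside lay at chr5:1001087-1001441, chr5:1001602-1002047 and chr5:1002343-1002702, with folds of 3.06, 2.88 and 3.10 and widths of 355, 446 and 360 bp. The 3 just outside lay at chr3:67446365-67447490, chr5:998619-1000550 and chr3:67450604-67451042, with folds of 3.28, 4.07 and 2.70 and widths of 1126, 1932 and 439 bp. All 3 regions just inside belonged to a single dense group at the first end of chromosome 5.

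In fold, −log10 q and width, the order of FUL2-TM3-only and shared regions was the same on each chromosome. Median fold was lower in FUL2-TM3-only regions on 12 of 12 chromosomes, with 3.32 to 3.66 against 3.87 to 4.02 in shared regions, so the chromosomes' ranges did not overlap. Median −log10 q was lower on 12 of 12, with 10.7 to 13.3 against 13.6 to 14.5, and median width on 12 of 12, with 288 to 298 bp against 312 to 330 bp. The median background was higher in FUL2-TM3-only regions on 10 chromosomes and lower on 1, chromosome 6, where it was 1.14 against 1.2 times the common level. On chromosome 2 both medians were 1.2 times after rounding. Chromosomes share the merged library and are not replicates.

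Each chromosome had FUL2-TM3-only regions, between 54 on chromosome 6 and 144 on chromosome 9. Per Mb there were 1.08 on chromosome 6 to 1.97 on chromosome 3, and their share of the FUL2-TM3 regions ran between 18.3% (15.2 to 22.0%) on chromosome 12 and 28.8% (24.8 to 33.1%) on chromosome 3. The strongest FUL2-TM3-only region of a chromosome had a −log10 q of 21.8 on chromosome 3 and of 40.4 on chromosome 9 at the extremes.

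The 6 FUL2-TM3-only regions with the highest −log10 q fell into a group of high fold and a group of high background. The first group held chr9:75217307-75217749 (fold 5.53, −log10 q 40.4), chr10:36979540-36979891 (6.05 and 35.3), chr1:4256886-4257266 (5.44 and 31.7) and chr5:54380203-54380586 (5.10 and 30.7). Their summits were covered by 158, 126, 124 and 131 reads over backgrounds of 1.76, 1.26, 1.39 and 1.58 times the common level. Around chr1:4256886-4257266 the nearest peak of any other complex was 144 kb away. The second group was chr11:46806796-46807137, with a fold of 3.62 and 214 reads over 3.73 times the common background, and chr9:61059087-61059375, with a fold of 3.04 and 257 reads over 5.37 times. At this second position the local background equalled 58.0 input reads. The 3 highest folds outside these 6 were 5.61 at chr9:78470140-78470515, 5.58 at chr4:57355956-57356321 and 5.58 at chr6:40886953-40887369, all over a background of 1 to 1.11 times the common one. At the other extreme, chr3:29469135-29469655 had the lowest fold, 1.67, over 5.92 times the common background.

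Most FUL2-TM3-only regions stood alone along the chromosome. The distance to the next FUL2-TM3-only region, midpoint to midpoint, had a median of 185 kb. Another FUL2-TM3-only region lay within 100 kb for 431 of the 1178 (36.6%), against 71.3% of shared FUL2-TM3 regions, 56.1% of MC-TM3-only and 43.5% of FUL2-J-only regions. These kinds differ in density, which was 1.47 per Mb for FUL2-TM3-only regions and 5.30, 3.54 and 2.50 per Mb for the others. At short range the order changed. Within 10 kb, 187 FUL2-TM3-only regions (15.9%) had another, against 18.6% of shared FUL2-TM3, 9.37% of MC-TM3-only and 7.41% of FUL2-J-only regions. Within 1 kb, 31 (2.63%) had another, against 0.873%, 0.636% and 0.3%.

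The short distances came from few places. With FUL2-TM3-only regions at most 100 kb apart joined into runs, there were 879 runs, of which 747 were a single region, 91 a pair, 24 of 3, 8 of 4 and 2 of 5 regions. The remaining 7 runs had 7, 10, 13, 14, 25, 32 and 34 regions. These dense runs, a limit of 7 chosen after the sizes were seen, held 135 FUL2-TM3-only regions (11.5%) in 993 kb, 0.124% of the span away from ends. Runs of at least 7 regions held 10.8% of shared FUL2-TM3 regions, 5.34% of MC-J-only, 1.1% of MC-TM3-only and 0.601% of FUL2-J-only regions, and no single-list regions of either J2 complex. The longest single-list run of another complex had 12 regions.

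FUL2-TM3-only regions in dense runs were wider and less enriched than the remaining ones. Their median width was 392 bp (360 to 427), against 291 bp (287 to 293) outside the runs, and their median fold 3.16 (3.05 to 3.32), against 3.48 (3.44 to 3.50). Their background was 1.55 times the common one, against 1.3 times outside, and 83 reads covered the summit, against 77. Of the 53 FUL2-TM3-only regions over 500 bp, 41 (77.4%) lay in dense runs, as did 124 (66.3%) of the 187 with another within 10 kb. Outside the runs 1.15% were over 500 bp wide, and 6.04% had another FUL2-TM3-only region within 10 kb.

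The 3 largest runs lay on chromosomes 9, 5 and 3. The run at chr9:78443449-78669044 had 34 FUL2-TM3-only regions in 226 kb, with a median fold of 3.28 and a median width of 354.5 bp. It held 47 FUL2-TM3 peaks and 15 MC-TM3 peaks and none of the 4 complexes with J or J2. The 500 kb on either side held 1 FUL2-TM3 peak and 6 MC-TM3 peaks, so FUL2-TM3 peaks were dense inside the run and sparse beside it. Its strongest FUL2-TM3-only region, chr9:78581351-78581704, had a fold of 5.42 and a −log10 q of 25.4, and no other complex within 59.9 kb.

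The run at chr5:1001087-1082474 began at the 1 Mb limit and had 32 FUL2-TM3-only regions in 81.4 kb, the closest packing of the 7 runs, with a median width of 488.5 bp and a median fold of 3.03. FUL2-TM3 peaks covered 51.1% of it. It held 49 FUL2-TM3 and 20 MC-TM3 peaks and none of the complexes with J or J2. Unlike the run on chromosome 9, it was the inner part of a longer stretch, since its 500-kb flanks held 348 FUL2-TM3 and 86 MC-TM3 peaks. The widest FUL2-TM3-only region was in it, at chr5:1062871-1065273 with 2403 bp and a fold of 3.52, and so was the next but one in width, at chr5:1042939-1044838 with 1900 bp.

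The run at chr3:29452068-29584474 had 25 FUL2-TM3-only regions in 132 kb, 29.5 Mb from the nearer end. Its regions had a median width of 565 bp, the largest of the 7 runs, a median fold of 2.92, the lowest of the 7, and a median background of 1.77 times the common one. Here the other complexes were present too, with 33 MC-TM3, 12 FUL2-J, 6 MC-J, 4 FUL2-J2 and 4 MC-J2 peaks beside 49 FUL2-TM3 peaks. The region chr3:29454351-29456428, 2078 bp wide with a fold of 4.12, was its strongest and the second in width of all.

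A run on chromosome 2, singled out after its values were seen, differed from these in having no peak of any other complex. At chr2:19165936-19365554, 13 FUL2-TM3 peaks lay in 200 kb and each was a FUL2-TM3-only region. Their folds were between 2.38 and 4.27 (median 3.44) and their median width was 316 bp, close to those of all FUL2-TM3-only regions. The strongest, chr2:19171552-19171911, had a fold of 4.02, a −log10 q of 27 and 149 reads over 2.31 times the common background. The 500-kb flanks held peaks of all 6 complexes, namely 11 of FUL2-TM3, 22 of MC-J, 21 of MC-TM3, 18 of FUL2-J, 10 of FUL2-J2 and 6 of MC-J2. The remaining dense runs were a pair on chromosome 9, at chr9:75163906-75338181 with 14 regions and at chr9:75488994-75632835 with 10, and a run of 7 at chr4:4279863-4315893. Over the 7 runs there were 198 peaks of FUL2-TM3, 73 of MC-TM3, 18 of FUL2-J, 8 of MC-J and 9 of the complexes with J2.

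**Figure D4:**
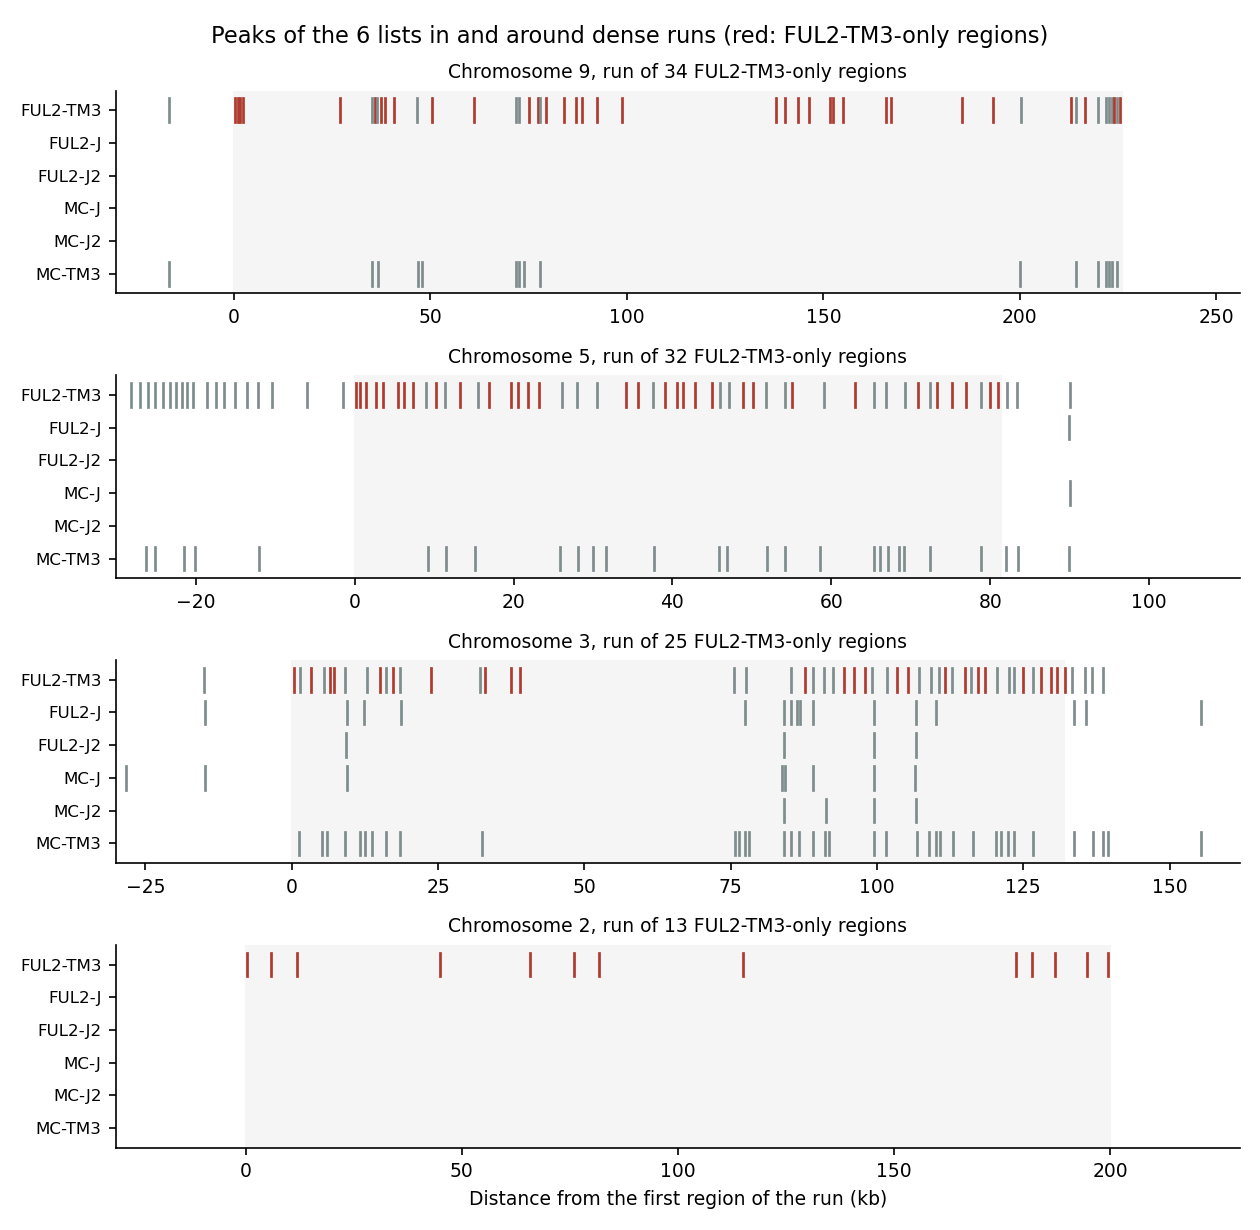
Peaks of the 6 lists (rows, 1 tick per peak at its midpoint) in the 3 largest runs and in the chromosome 2 run, by distance in kb from the first FUL2-TM3-only region, with 30 kb on both sides. Red ticks are FUL2-TM3-only regions, grey ticks all other peaks, and the shaded span is the run. The runs on chromosomes 9 and 5 hold FUL2-TM3 and MC-TM3 peaks alone, that on chromosome 3 holds peaks of all 6 complexes, and that on chromosome 2 holds 13 FUL2-TM3 peaks and no other.

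Along the chromosomes, FUL2-TM3-only regions were sparsest between 2 and 5 Mb from the nearer end, and their high density next to the 1 Mb limit came from the chromosome 5 run. Between 1 and 1.5 Mb from the nearer end there were 3.67 per Mb (95% Poisson interval 2.66 to 4.92, 44 regions), but 32 of the 44 were at the first end of chromosome 5. Without the dense runs the density there was 1 per Mb. Between 1.5 and 2 Mb there were 15 regions. The density was 0.889 per Mb (0.685 to 1.14) between 2 and 5 Mb, 1.57 between 5 and 10 Mb, 1.19 between 10 and 20 Mb and 1.69 beyond 20 Mb, where 581 of the 1178 lay. Shared FUL2-TM3 regions had 6.17, 3.17, 3.08, 3.57, 4.97 and 6.64 per Mb in the same bands. Both kinds were thus denser beyond 20 Mb than between 2 and 5 Mb.

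Between 1 and 2 Mb from an end there were 59 FUL2-TM3-only regions, at 16 of the 24 chromosome ends. The first end of chromosome 5 had 34 of them, and no other end had more than 3. The band between 1 and 5 Mb, 12% of the span, held 10.4% (8.82 to 12.3%) of FUL2-TM3-only regions, against 7.88% (7.11 to 8.73%) of shared FUL2-TM3, 8.62% of MC-TM3-only and 8.71% of FUL2-J-only regions. The difference rested on chromosome 5, as the share of FUL2-TM3-only regions was 7.89% without that chromosome, against 7.62% of shared regions, and 8.05% (6.55 to 9.86%) without the dense runs. Without the dense runs the 6 bands had 0.792 to 1.62 FUL2-TM3-only regions per Mb, with the lowest value between 2 and 5 Mb and the highest beyond 20 Mb.

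**Figure D5:**
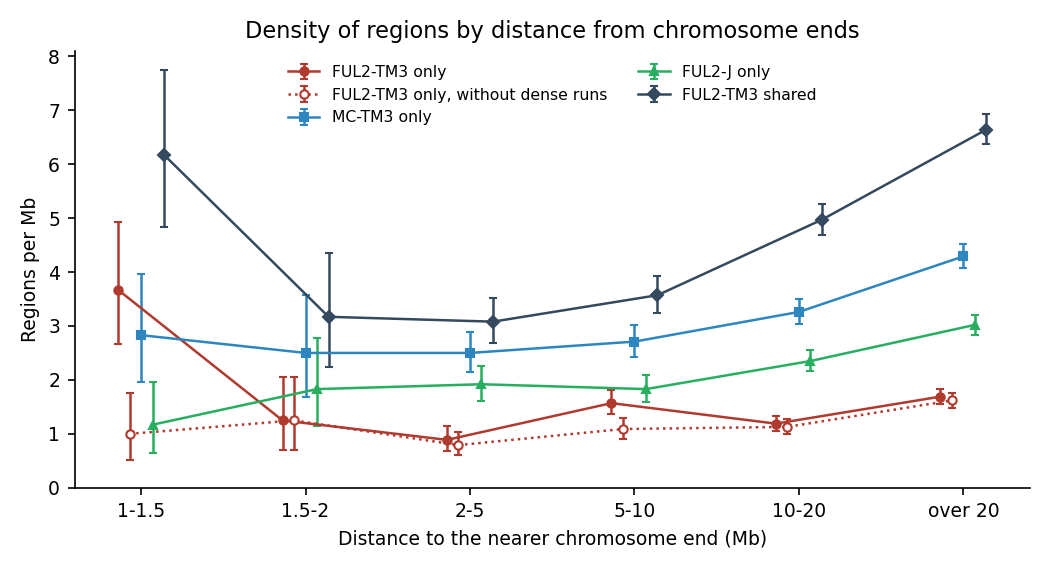
Regions per Mb by distance from the nearer chromosome end, for FUL2-TM3-only regions (red, open circles without the dense runs), MC-TM3-only (blue), FUL2-J-only (green) and shared FUL2-TM3 regions (dark), with 95% Poisson intervals. The lines join the bands for each kind and the bands differ in width. The high first point of FUL2-TM3-only regions, 3.67 per Mb, is 1 without the dense runs.

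FUL2-TM3-only regions mostly lay kilobases away from the nearest peak of another complex. The gap to that peak, edge to edge and to the lists other than their own, had a median of 11.2 kb, close to the 12.4 kb of MC-TM3-only and the 11.8 kb of FUL2-J-only regions. A gap of at most 100 bp was found for 1 FUL2-TM3-only region and one of at most 300 bp for 18 (1.53%). Within 1 kb, 105 (8.91%, 7.42 to 10.7%) had a peak of another complex, against 6.01% (5.19 to 6.95%) of MC-TM3-only and 5.66% (4.73 to 6.76%) of FUL2-J-only regions. Dense runs held 32 of the 105, and the share outside them was 7% (5.6 to 8.71%). The smallest gap, 98 bp, was at chr3:29458352-29458735 in the chromosome 3 run. The next, 182 bp each, were at chr1:89092709-89092989 and at chr9:78520585-78520875, and in all 3 the neighbour was MC-TM3.

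MC-TM3, which shares the partner TM3, was the nearest other complex more often than its share of the peaks. It was nearest to 460 FUL2-TM3-only regions, 39.0% (36.3 to 41.9%), and made up 24.8% of the other lists' peaks away from ends. MC-J was nearest to 26.0% and made up 26.4%, and FUL2-J, which shares FUL2, was nearest to 25.1% and made up 25.3%. FUL2-J2 was nearest to 4.41% and MC-J2 to 5.43%, below their 12.1% and 11.4% of peaks. Only 1 list is counted as nearest to a region, however. Of the regions away from ends with a FUL2-J2 or MC-J2 peak, 5.50% and 8.22% held no other list. A J2 peak was thus mostly counted against an overlapping peak of another list, and low nearest shares do not show that J2 peaks lay farther away. Within 1 kb each list was counted separately. For each 1000 of its peaks, MC-TM3 had 7.05 FUL2-TM3-only regions within 1 kb, while the other 4 complexes had 3.69 to 4.36. FUL2-J2 and MC-J2, with 4.13 and 4.36, were not below FUL2-J and MC-J as a pair, with 4.24 and 3.69. The lead of MC-TM3 within 1 kb was absent outside the dense runs, while its lead as the nearest complex was smaller there but remained. Outside the runs MC-TM3 was nearest to 33.3% (30.5 to 36.2%) of 1043 FUL2-TM3-only regions, still above its 24.8% of peaks. MC-J, with 29.0% (26.3 to 31.8%), and FUL2-J, with 26.7% (24.2 to 29.5%), were also above their shares there, though with intervals that included them. FUL2-J2 and MC-J2 were nearest to 4.89% and 6.14%. These shares of peaks count peaks inside the runs too. Outside the runs MC-TM3 lay within 1 kb of 38 FUL2-TM3-only regions, FUL2-J of 39 and MC-J of 37. Regions with another complex within 1 kb had a median fold of 3.34 and a median width of 295 bp, against 3.44 and 294 bp for those with none.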

How the data were processed

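DAP-seq reads were trimmed with Trim Galore, mapped to the Moneyberg genome with hisat2, merged per complex and used for peak calling with MACS2 by the authors, with versions not given in the sources used here. How the input libraries were combined is not given either. The peak names refer to 2 alignments per merge, and those of FUL2-TM3 name another merging tool than the other lists. The deposited lists give for each peak its position, a score (not used), the fold enrichment as a ratio with a pseudocount of 1, −log10 p, −log10 q and the summit offset, but no counts. The authors' methods state a threshold of 0.0001 on P. In the deposited FUL2-TM3 list the lowest −log10 p was 6.0 and the lowest −log10 q 4.01, so that this value bounded q.

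The members and the rules for describing them were chosen with earlier results of these data known. Peaks overlapping by at least 1 bp were joined with scipy 1.17.1, pandas 2.3.3 and numpy 2.4.6 under Python 3.11.15, and the number of regions was checked with bedtools 2.31.1. The figures were made with matplotlib 3.10.9. Chromosome ends were position 0 and the last end of any peak. Regions named singly are the 6 with the highest −log10 q, the 3 with the highest fold after these, the 3 widest, the 3 largest runs, the 3 smallest gaps and the 3 on either side of the 1 Mb limit. The strongest region of each run described, the lowest fold and the chromosome 2 run were added after their values were seen.

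Reads were recovered by solving MACS2's formulas for fold and p, with backgrounds of at least 5 considered and pileups counted as whole within 0.1 reads. A FUL2-TM3 read was worth 0.694 reads at the scale of the input, which makes the merged treatment 1.44 times as deep as the input. Of 713 peaks held out of this estimate, 99.0% were whole, and 95.3% of the FUL2-TM3 peaks were solved. Tested on 2837 simulated FUL2-TM3 peaks, the method recovered the set weight of 0.7, solved 97.3% and returned the simulated reads at 100.0% of these. The simulated fold and p came from the same formulas, so the simulation checks the solving and not the formulas. The simulated reads did not reach the highest recovered numbers.

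Shares have 95% Wilson intervals, medians binomial and densities Poisson intervals. They cover counting error over regions and no variation between libraries, so no test between kinds of regions was made. The number of reads per library was not used here. The alternatives were other overlaps, peak cut-offs, end distances and near distances, a left-out chromosome, and, chosen after seeing the data, leaving out the dense runs. Positions are 1-based in the Moneyberg genome. Its sequence and annotation were not used here.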

Additional observations from a re-analysis of the deposited data

Results flagged for a closer look

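On unplaced sequence, which the description of the chromosomes leaves out, 240 regions were held by FUL2-TM3 alone. Their median fold was 2.91, their median width 476 bp and their median −log10 q 8.49, against 2.89, 472 bp and 9.51 within 1 Mb of an end and 3.44, 294 bp and 12.1 away from ends. Their median background was 1.52 times the common one, against 1.76 near ends and 1.33 away from them, and 7.08% had a peak of another list within 1 kb, against 20.5% and 8.91%. In fold and width they were nearer to the regions close to ends, and in gaps to other lists nearer to those away from ends. They were brought up because they lie outside the sequence compared above. A distance from an end cannot be given for them.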

How the results depend on the processing

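FUL2-TM3-only regions stayed on the same side of shared regions in median fold, percentile, width and share with raised background under the alternatives run for each. So did the share with a near neighbour at 10, 100 and 500 kb, while at 1 kb it was higher in FUL2-TM3-only regions (2.63%) than in shared regions (0.873%). Their number was between 807 and 1423. The share of FUL2-TM3 regions held alone, 21.7%, was 23.1% with an overlap of 50% of both peaks, 26.3% with summits within 100 bp, 18.8% with a −log10 q of at least 10 for FUL2-TM3, 30.2% with the 4000 strongest peaks of each list, 20.5% with a fold of at least 3 and 19.7% without the dense runs. The share with another list within 1 kb, 8.91%, was 14.2%, 24.6%, 7.17% (peaks up to 300 bp apart joined), 3.69% (4000 peaks) and 7% (without runs), the first 2 for the 50% overlap and the summits, and 46.9% within 10 kb. The median width of 294 bp was 298 bp for summits and 306 bp for 4000 peaks. The share with another within 100 kb, 36.6%, was 39.8% (summits), 32.7% and 31.1% (−log10 q of at least 10 in all lists and in FUL2-TM3), 26.8% (4000 peaks), 32.2% (fold), 33.8% (without chromosome 9) and 28.4% (without runs), and 15.9% within 10 kb and 78.1% within 500 kb. The median fold of 3.44 was 3.73 and 3.74 for the −log10 q limits, 4.19 for 4000 peaks and 3.62 for a fold of at least 3. The share 1 to 5 Mb from an end, 10.4% against 7.88% of shared regions, did not stay apart, with 7.74% against 7.64% (4000 peaks), 5.72% against 5.38% (from 2 Mb), 7.89% against 7.62% (without chromosome 5) and 8.05% against 7.88% (without runs). The runs were left out of the FUL2-TM3-only regions alone, so the last value is that of all shared regions. Raised background, 70.9%, was 65.6% (4000 peaks), 65.0% (fold) and 56.5% (a higher limit). The percentile of 37.5 was 31.0 by fold. The 70 regions with MC-TM3 within 1 kb were 38 without the dense runs. The causes were not tested, beyond what fewer peaks or another limit bring by construction. No paired analysis was possible because the lists hold 1 pooled value per complex and no value per library, and for the same reason no library could be left out.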
